A study of Mus musculus with 8 samples.

Results

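The genes described here are 39 genes of the lysosome and of autophagy, out of 47643 genes in the count files of 8 mouse kidney libraries. They were listed by symbol for what they do, with earlier results of these data known, and all 39 were matched to an Ensembl identifier and passed the filter on low counts that left 13829 genes for testing. By role they fall into 9 cathepsins and legumain, 12 hydrolases and soluble lipid-handling proteins, 8 membrane proteins and proton pump subunits, and 10 autophagy factors with their regulators.

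RNA was sequenced from whole kidneys of wild-type (WT) and conditional knockout (cKO) mice, in 4 libraries of each. The cKO genotype is given as Six2-Cre;Cox10-fl/fl, and the controls are described only as wild type, so whether they carried Cre or a floxed allele is not given in the sources used here. Cox10 encodes an enzyme of heme A synthesis that is needed to assemble cytochrome c oxidase. Six2-Cre is active in progenitors of the nephron, so tubule and podocyte lineages carry the deletion, while the collecting duct, vessels, stroma and blood cells have other origins. Replicates 1, 3 and 4 of both groups were 3 months old and replicate 2 of both groups 2.5 months old. The labels do not tie each library to a different mouse, and the p values measure the spread between these libraries.

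Library totals ranged from 9454830 to 15838026 counts. Cox10 itself stood at 21.0 ± 2.47 CPM (counts scaled to the size and composition of the library; SD, n = 4) in the WT group and at 18.4 ± 5.12 CPM (SD, n = 4) in the cKO group, with an edgeR adjusted p of 0.619. By library, cKO 2 was at 10.9 CPM and cKO 1, cKO 3 and cKO 4 at 19.5 to 22.3 CPM, against 19.2 to 24.6 CPM in WT. Which exons are floxed is not given in the labels, so a total over the gene does not check the genotype. Sex is not given in the labels: 1 WT and 3 cKO libraries held 0 counts of Y-linked genes, and the other 3 WT libraries and 1 cKO library held 829 to 1707. Library cKO 2, of the younger pair, stood apart from the other cKO libraries in summed kidney segment markers, at 3967 CPM against 6889 to 7121. All 10 of these markers, among them uromodulin (Umod) and aquaporin 2 (Aqp2), were tested, so the labelled tissue was visible in the counts.

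Lysosomes are acidic organelles that break down material taken in by endocytosis or delivered by autophagosomes. Soluble hydrolases and cathepsins work in their lumen, a vacuolar proton pump keeps it acidic, and heavily glycosylated membrane proteins line it. In autophagy, the ULK1 kinase and the Beclin 1 lipid kinase complex start a double membrane to which LC3 and GABARAP proteins are coupled, and the adaptor p62 (Sqstm1) links cargo to it. The proximal tubule of the kidney is rich in lysosomes because it takes up filtered protein. The transcription factors TFEB and TFE3 switch on many of these genes through an E-box element, whose fullest form is written GTCACGTGAC.

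The promoters of the members were searched for this element, which was not used to make the list. Since the element is known from genes of this kind, a higher share among the members is no independent result. Promoter sequences, 250 bases before to 50 bases after the transcription start, came from RefSeq on GRCm38.p6 and covered 32 of the 39 members. Ctsb, Ctsh, Asah1, Npc1, Atp6v1h, Becn1 and Map1lc3a had no entry. Each motif searched reads the same on both strands, and each longer one contains the shorter. The core CACGTG stood in 12 of the 32 members (37.5%), against 8.09% of 27025 genes. Those are all genes with a promoter entry, whether or not they were tested here. TCACGTGA stood in 5 of them (15.6%), against 1.12% of genes, and GTCACGTGAC in 0 members, against 0.37%. The 5 members are shown because they include both members that rose in cKO kidneys and members that did not, with TCACGTGA in capitals and each run written 5′ to 3′ on the strand of its gene.
Ctsd: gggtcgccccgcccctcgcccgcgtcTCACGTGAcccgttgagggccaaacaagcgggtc
Gla: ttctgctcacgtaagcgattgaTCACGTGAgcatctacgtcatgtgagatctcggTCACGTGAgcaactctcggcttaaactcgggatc
Ctsa: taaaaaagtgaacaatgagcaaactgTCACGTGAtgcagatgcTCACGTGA
Mcoln1: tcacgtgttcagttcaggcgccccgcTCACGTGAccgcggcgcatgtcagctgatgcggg
Atp6v0d1: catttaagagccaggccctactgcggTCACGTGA

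On GRCm38.p6 these stretches lie at chr7:142387893-142387952 (minus strand) for Ctsd, chrX:134601167-134601255 (minus) for Gla, chr2:164833734-164833784 (plus) for Ctsa, chr8:3500447-3500506 (plus) for Mcoln1 and chr8:105566061-105566094 (minus) for Atp6v0d1. The motif starts 99 bases before the start site in Ctsd, 228 and 195 before it in Gla, and 46 before it in Mcoln1. In Atp6v0d1 it spans the start site itself, and in Ctsa, at the second of 2 annotated starts, 1 copy lies before it and the other reaches 12 bases past it. Of these 5 genes Ctsd and Gla were called higher in cKO and Ctsa, Mcoln1 and Atp6v0d1 were not called. Among the 7 members called in either direction 3 held the core CACGTG, as did 9 of the 25 other members with a promoter entry. A match of letters is a description and does not show that a factor binds there.

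Of the 39 members, 6 were higher and 1 was lower in cKO at an edgeR adjusted p under 0.05. That is 17.9% of the members, against 16.7% of all tested genes, or 9.57% called higher and 7.14% called lower, so as a whole the list was called about as often as the transcriptome. The median log2 fold change of the members was 0.13 and that of all tested genes -0.01. The calls were not spread evenly over the roles. Cathepsins and legumain had 4 of 9 called, all higher, with a median of 0.78. Hydrolases and lipid-handling proteins had 2 higher and 1 lower of 12, with a median of -0.05. Membrane proteins and proton pump subunits had 0 of 8 called and autophagy factors 0 of 10, with medians of -0.01 and 0.06. At an unadjusted p under 0.05 these counts were 6, 4, 0 and 1. DESeq2, which called 22.9% of all tested genes, called 7 members higher, the same 6 and Ctsb, and 2 lower, Galc and the autophagy factor Gabarapl1. It called 0 membrane proteins.

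**Figure D1:**
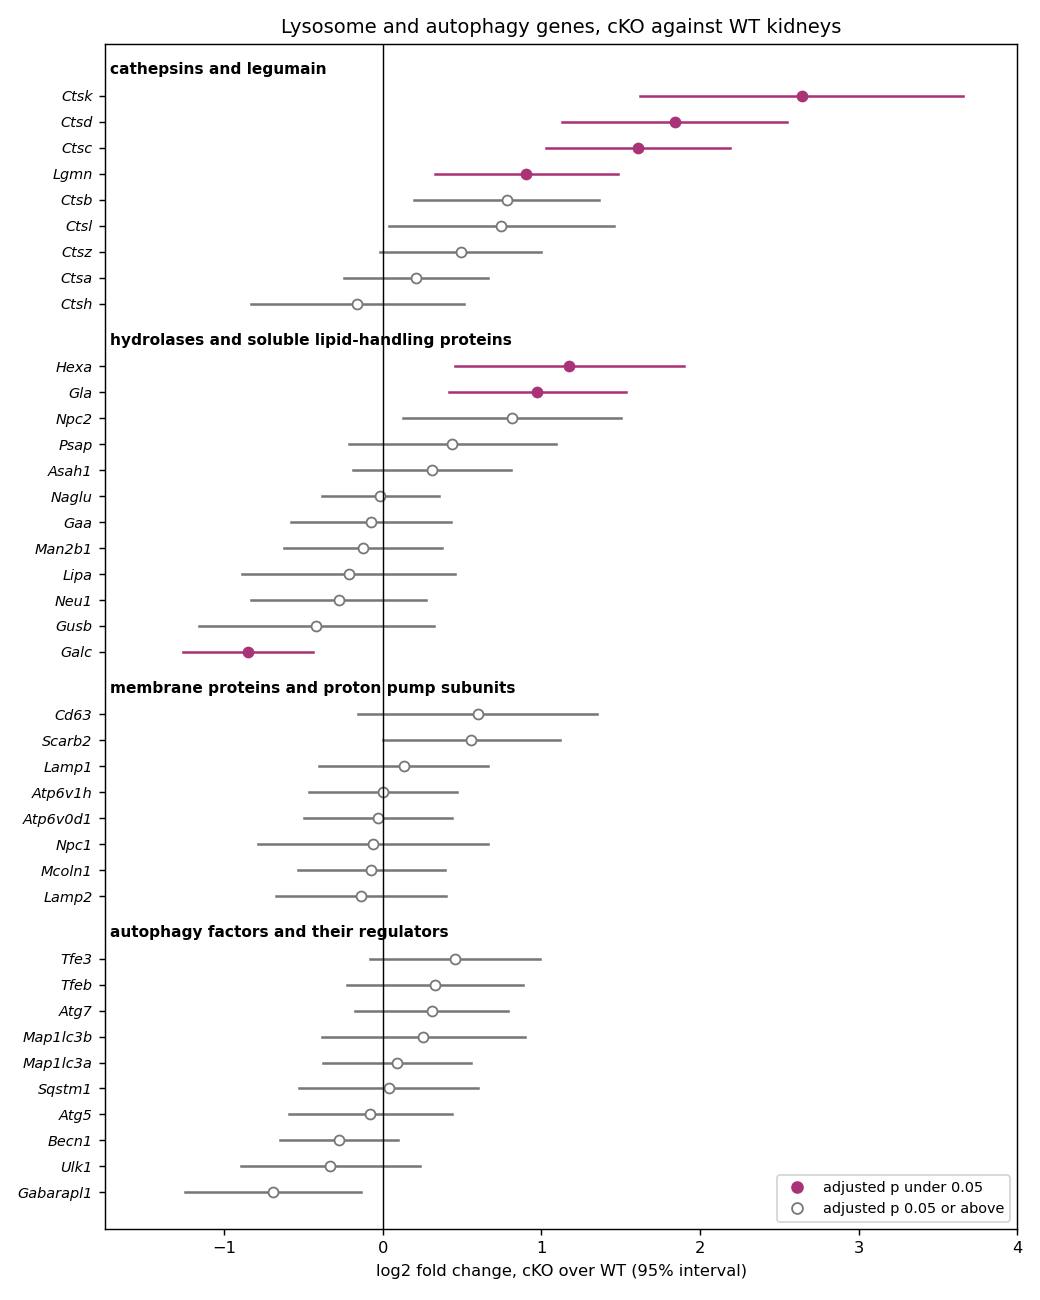
Log2 fold change of each of the 39 members (x axis, cKO over WT) with its 95% interval, by role; filled points passed an edgeR adjusted p under 0.05. The 4 filled points in the cathepsin group lie between 0.91 and 2.64, and no point in the lower 2 groups is filled.

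The cathepsin group held the 3 largest rises of the list, Ctsk, Ctsd and Ctsc. Ctsk (ENSMUSG00000028111, mm10 chromosome 3, 95499256 to 95509362) encodes cathepsin K, a cysteine protease that cuts collagen and is best known from osteoclasts. It stood at 2.93, 3.56, 3.27 and 2.72 CPM in WT 1 to 4 and at 8.67, 42.9, 11.9 and 14.8 CPM in cKO 1 to 4. All cKO libraries lay above all WT libraries, and cKO 2 lay far above the other 3. The log2 fold change was 2.64 (SE 0.47, edgeR adjusted p = 0.00372), from 3.12 ± 0.371 to 19.5 ± 15.7 CPM (SD, n = 4). Without cKO 2 it was 1.92 and still called.

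Ctsd (ENSMUSG00000007891, chromosome 7, 142375911 to 142388038) encodes cathepsin D, the main aspartic protease of lysosomes, whose promoter carries the motif shown above. It stood at 890, 801, 556 and 680 CPM in WT 1 to 4 and at 1687, 3221, 2029 and 3549 CPM in cKO 1 to 4. The groups did not overlap, and cKO 2 and cKO 4 were the highest. Its level rose from 732 ± 145 to 2621 ± 902 CPM (SD, n = 4), or by 1.84 on the log2 scale with an SE of 0.32 (edgeR adjusted p = 0.00367). Without both WT 4 and cKO 4, where 4.1% of all tested genes were called, its log2 fold change was 1.60 with an adjusted p of 0.0694. Per kilobase of exon, counted over all annotated transcripts, the mean of Ctsd went from 311 to 1115 CPM per kb. On this measure it moved from rank 6 among the 39 members in WT to rank 1 in cKO. Such ranks depend on the annotated lengths, since a gene with long rare exons gets a low level.

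Ctsc (ENSMUSG00000030560, chromosome 7, 88278085 to 88310888) encodes cathepsin C, a dipeptidyl peptidase that activates the serine proteases of leukocyte granules. It measured 34.2, 18.8, 15.4 and 16.5 CPM in WT 1 to 4 and 58.5, 73.7, 62.0 and 65.1 CPM in cKO 1 to 4. WT 1 was the highest of the WT libraries and still lay below every cKO library. The rise was from 21.2 ± 8.74 to 64.8 ± 6.48 CPM (SD, n = 4), or by 1.61 on the log2 scale with an SE of 0.27 (edgeR adjusted p = 0.00253).

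Lgmn (ENSMUSG00000021190, chromosome 12, 102394084 to 102439813) encodes legumain, which cuts after asparagine and helps to mature cathepsins. It measured 917, 787, 567 and 732 CPM in WT 1 to 4 and 1151, 1748, 1297 and 1429 CPM in cKO 1 to 4, again with no overlap. The log2 fold change was 0.91 (SE 0.27, edgeR adjusted p = 0.0381). This call was marginal: leaving out WT 2, WT 3, WT 4, cKO 2, cKO 3 or cKO 4 gave log2 fold changes of 0.78 to 0.94 and adjusted p values of 0.0667 to 0.104.

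The other 5 cathepsins did not pass. Ctsb, a broadly expressed cysteine protease, came nearest: its cKO libraries, at 1163 to 1499 CPM, lay above the WT libraries, at 604 to 1024 CPM, with a log2 fold change of 0.78 and an edgeR adjusted p of 0.0669. For the endopeptidase Ctsl the log2 fold change was 0.75 (adjusted p = 0.134), for the carboxypeptidase Ctsz 0.49 (0.163) and for Ctsa, the protective protein of sialidase, 0.21 (0.508), with overlapping groups. Ctsh, an aminopeptidase, was at -0.16 (0.744), with a 95% interval from -0.83 to 0.51.

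The genes of this protease group contributed in different proportions in the libraries of the genotypes. Summed per kilobase over its 9 genes, the level was 834 to 1317 CPM per kb in WT and 1805 to 2897 in cKO libraries. Ctsd supplied 28.0% ± 0.696 of that sum in WT (SD, n = 4), with 27.1% to 28.7% per library, and 45.4% ± 5.88 in cKO (SD, n = 4), with 39.7% to 52.8%. Lgmn supplied 29.2% ± 1.57 and 25.5% ± 2.71, and Ctsh 8.42% ± 1.97 and 3.64% ± 0.857 (SD, n = 4). On this measure Lgmn and Ctsd were at nearly the same level in WT kidneys, and in each cKO library Ctsd stood first. The shares depend on exon lengths over all annotated transcripts, which ran from 1441 bases for Ctsz to 6489 for Ctsl. These shares follow from the same counts as the fold changes and carry no test of their own.

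**Figure D2:**
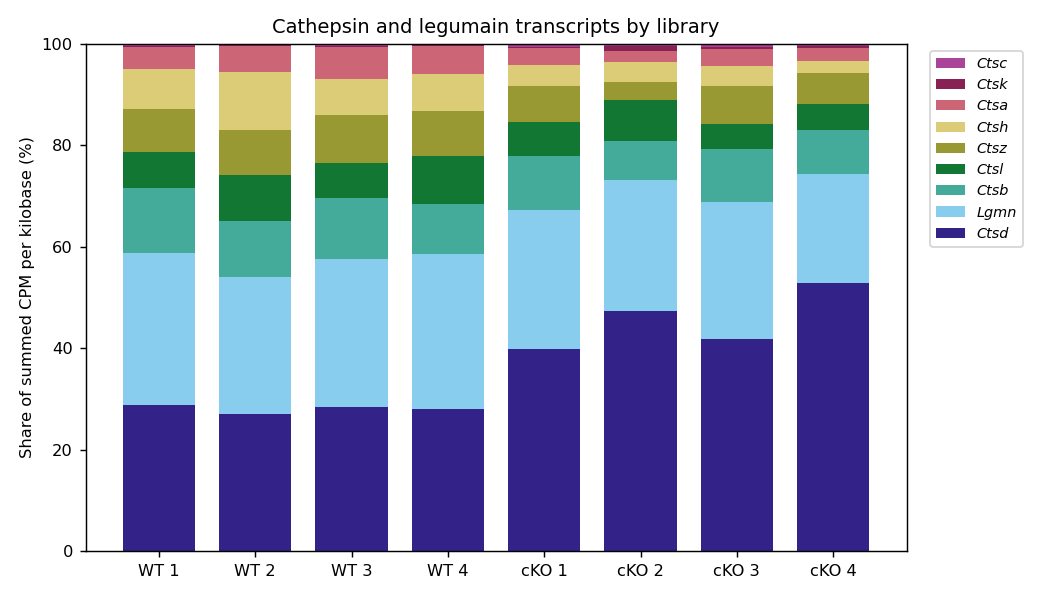
Share of each of the 9 cathepsin and legumain genes in their summed CPM per kilobase of exon (y axis, percent) for each library (x axis). Ctsd, at the base of each bar, supplies 27.1% to 28.7% in WT and 39.7% to 52.8% in cKO libraries.

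Among the hydrolases, 2 enzymes of glycolipid breakdown rose and 1 fell. Hexa (ENSMUSG00000025232, chromosome 9, 59539540 to 59565109) encodes the alpha subunit of beta-hexosaminidase, which degrades the ganglioside GM2. It measured 99.3, 60.6, 37.5 and 34.5 CPM in WT 1 to 4 and 93.6, 155, 131 and 144 CPM in cKO 1 to 4. The groups overlapped, since WT 1 lay above cKO 1. The log2 fold change was 1.17 (SE 0.33, edgeR adjusted p = 0.0322), and leaving out WT 2, WT 3, WT 4, cKO 2, cKO 3 or cKO 4 gave 1.00 to 1.19 with adjusted p values of 0.0607 to 0.0904.

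Gla (ENSMUSG00000031266, chromosome X, 134588149 to 134601125) encodes alpha-galactosidase A, which degrades globotriaosylceramide. It stood at 11.3, 9.99, 6.29 and 6.66 CPM in WT 1 to 4 and at 14.3, 21.5, 15.6 and 15.9 CPM in cKO 1 to 4, on 77 to 243 counts per library. The groups did not overlap, and the log2 fold change was 0.98 (SE 0.26, edgeR adjusted p = 0.0244). Without WT 3, WT 4, cKO 2 or cKO 4 it was 0.84 to 1.00 with adjusted p values of 0.0572 to 0.0787.

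Galc (ENSMUSG00000021003, chromosome 12, 98202294 to 98259459) encodes galactosylceramidase, which removes galactose from galactosylceramide, and was the only member called lower. It measured 112, 121, 135 and 133 CPM in WT 1 to 4 and 77.6, 77.8, 63.9 and 58.4 CPM in cKO 1 to 4. The spread was small in both groups and all cKO libraries lay below all WT libraries. Its level fell from 125 ± 10.8 to 69.4 ± 9.83 CPM (SD, n = 4), or by 0.85 on the log2 scale with an SE of 0.19 (edgeR adjusted p = 0.0117). It was called with any single library left out, but not without both WT 4 and cKO 4, where its log2 fold change was -0.77 with an adjusted p of 0.12.

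The other 9 genes of this group did not pass. Npc2, the soluble cholesterol carrier, was at 0.82 on the log2 scale (edgeR adjusted p = 0.0955) and passed without WT 1, at 1.00 with an adjusted p of 0.048. Psap, the precursor of the saposins that help hydrolases reach glycolipids, had the highest level per kilobase of all members in WT, at 687 CPM per kb. Its log2 fold change was 0.44 (0.329), with overlapping groups. The ceramidase Asah1 was at 0.31, the heparan sulfate enzyme Naglu at -0.02, the glycogen-degrading Gaa at -0.08, the mannosidase Man2b1 at -0.13, the acid lipase Lipa at -0.22, the sialidase Neu1 at -0.28 and the glucuronidase Gusb at -0.42. Their adjusted p values ranged from 0.363 to 0.955. For Naglu the 95% interval, -0.39 to 0.35, leaves ratios of 0.765 to 1.28 of cKO to WT.

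**Figure D3:**
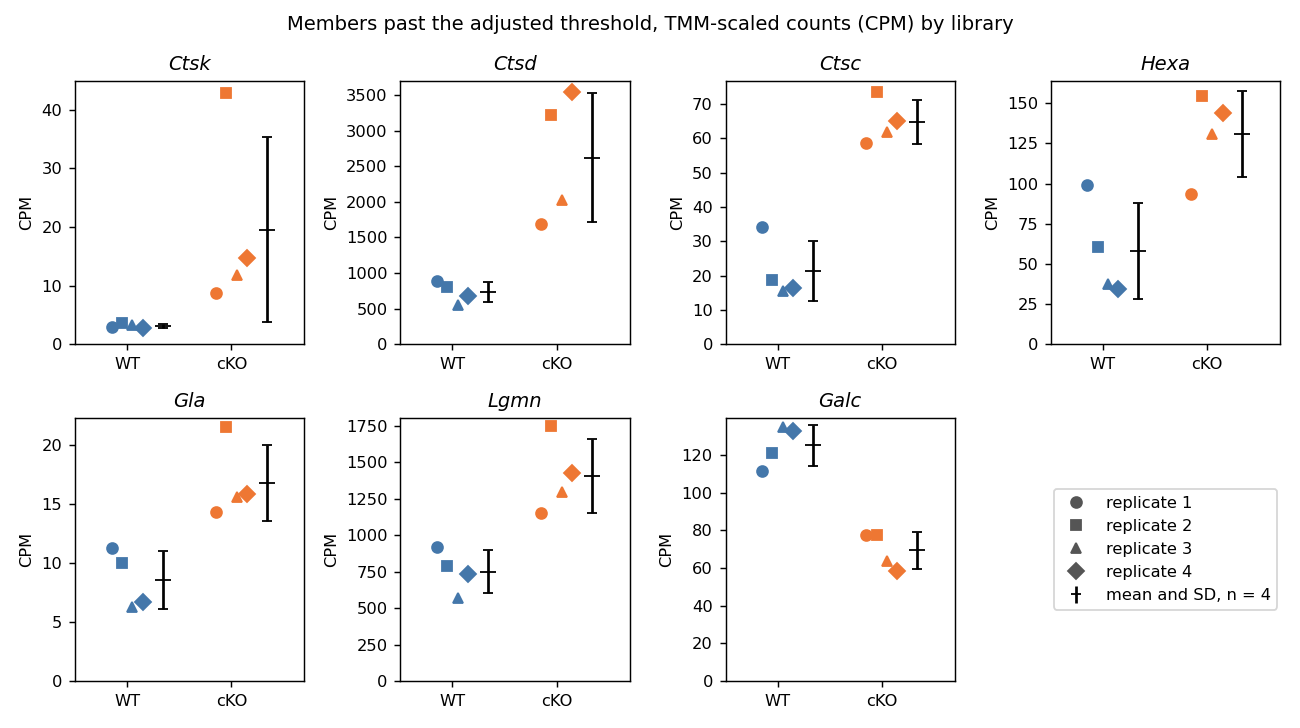
Scaled counts (CPM, y axis, linear from 0) of the 7 members called in cKO against WT; each point is a library, marked by its replicate number, and bars give the mean and SD of 4. All cKO points lie above the WT points for Ctsk, Ctsd, Ctsc, Gla and Lgmn and below them for Galc, while Hexa overlaps.

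None of the 8 membrane proteins and proton pump subunits was called, and their smallest edgeR adjusted p was 0.152. Lamp1, the most abundant glycoprotein of the lysosomal membrane, stood at 1674, 1775, 1327 and 1455 CPM in WT 1 to 4 and at 1702, 1555, 1883 and 1680 CPM in cKO 1 to 4. The groups overlapped in part, WT 3 and WT 4 lying below every cKO library and cKO 3 above every WT library, with a log2 fold change of 0.13 and a 95% interval from -0.41 to 0.67. Cd63, a tetraspanin of late endosomes and lysosomes, measured 1657, 1606, 751 and 944 CPM in WT and 1569, 2773, 1494 and 1663 CPM in cKO kidneys. Its log2 fold change was 0.60 (adjusted p = 0.247), and cKO 2 lay far above the rest of its group. Scarb2, the receptor that brings glucocerebrosidase to lysosomes, was at 0.56 (0.152) and the membrane glycoprotein Lamp2 at -0.14. The cholesterol exporter Npc1 was at -0.06, the calcium channel Mcoln1 at -0.07 and the pump subunits Atp6v0d1 and Atp6v1h at -0.03 and 0.00. The last 4 had adjusted p values of 0.835 to 0.999. The sequences above show that Mcoln1 and Atp6v0d1 carry the same motif as Ctsd.

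None of the 10 autophagy factors and regulators was called either. Gabarapl1, a GABARAP protein coupled to the autophagosome membrane and the most abundant of them, stood at 991, 826, 552 and 721 CPM in WT 1 to 4 and at 518, 417, 502 and 477 CPM in cKO 1 to 4. All cKO libraries lay below all WT libraries, with a log2 fold change of -0.69 (SE 0.25) and an edgeR adjusted p of 0.0841. DESeq2 called it, at -0.69 with an adjusted p of 0.0189. Sqstm1, which encodes p62, measured 370, 510, 494 and 539 CPM in WT and 443, 351, 552 and 616 CPM in cKO kidneys. The ranges overlapped, with a log2 fold change of 0.04 and a 95% interval from -0.53 to 0.60.

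The lipid kinase subunit Becn1 had 63.9 to 71.0 CPM in WT and 49.8 to 58.9 CPM in cKO libraries, without overlap, at a log2 fold change of -0.28 (edgeR adjusted p = 0.276). The LC3 genes Map1lc3a and Map1lc3b were at 0.09 and 0.26, the conjugation factors Atg5 and Atg7 at -0.08 and 0.31 and the starting kinase Ulk1 at -0.33. The regulators Tfeb and Tfe3 were at 0.33 (0.39) and 0.46 (0.218), on levels of 15.6 ± 1.61 and 19.6 ± 6.71 CPM for Tfeb (SD, n = 4). The largest upper bound of a 95% interval in this group was 0.99, for Tfe3, and the lowest lower bound -1.25, for Gabarapl1. The intervals leave changes of that size possible for single genes. Counting non-overlapping groups over the whole list, cKO lay above WT for 6 members and below for 3, where 13.1% and 9.56% of all tested genes did so (22.6% in either direction).

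The rest of the pathway was read from 6 further lists of 168 genes, of which 165 were tested. There 7 were called higher and 7 lower (8.48%), against 16.7% of all tested genes. Of 29 other hydrolases and activators 3 rose and 1 fell. Ctss, the cathepsin of antigen-presenting cells, rose from 15.5 ± 8.81 to 71.5 ± 10.8 CPM (SD, n = 4; log2 fold change 2.21, edgeR adjusted p = 0.00156), the nuclease Dnase2a by 1.01 (0.0138) and the phospholipase Pla2g15 by 0.89 (0.0181). The sulfatase Arsb fell by 1.30 (0.0471), with overlapping groups.

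Of 26 other membrane proteins and transporters 4 rose and 2 fell. The macrophage protein Cd68 rose by 2.73 on the log2 scale (edgeR adjusted p = 0.00155), Laptm5 of leukocytes by 1.75 (0.0145) and the phagosomal metal transporter Slc11a1 by 1.45 (0.0155). The amino acid transporter Slc36a1 fell by 1.42 (0.0298). Of 21 other proton pump subunits only Atp6v0a2 was called, and it fell by 0.68 (0.0351), and of 24 genes that deliver enzymes to lysosomes 0 were, with 2 at an unadjusted p under 0.05. Of 37 other autophagy genes only Wipi1, which binds the forming membrane, was called, and it fell by 0.75 (0.0398).

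Among 28 regulators of TFEB and mTORC1, 2 fell and 0 rose. Mtor, the kinase that holds TFEB in the cytosol, measured 91.4, 173, 335 and 297 CPM in WT 1 to 4 and 70.9, 54.8, 73.6 and 70.0 CPM in cKO 1 to 4. The cKO libraries lay close together below a wide WT range, with a log2 fold change of -1.73 (edgeR adjusted p = 0.0081). Fnip2, a partner of folliculin, fell by 1.61 (0.0035). Adding a sex term gave -1.18 for Mtor, with an edgeR adjusted p of 0.105, and -1.30 for Fnip2, with 0.0371.

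Markers of other cell types moved with the genotype as well. In whole kidney RNA, a change in the number of cells of a type and a change in RNA per cell cannot be told apart. Of 15 macrophage and monocyte markers 14 were called higher, and their summed level was 127 to 263 CPM in WT and 516 to 890 CPM in cKO libraries. None of the 15 was at 0 in every library, and the one not called was Csf1r, whose log2 fold change was negative. The 8 fibroblast markers summed to 122 to 208 CPM in WT and 447 to 704 CPM in cKO, with 7 higher and 1 lower. The 12 proximal tubule markers summed to 8295 to 17735 CPM in WT and 2384 to 7486 CPM in cKO, with 6 lower and 0 higher. The 10 kidney segment markers summed to 8283 to 10321 CPM in WT and 3967 to 7121 CPM in cKO, with 2 lower and 1 higher. Slc34a1 is in both the proximal tubule and the kidney segment list, so these sums are not independent. Cd68, named above among the other membrane proteins and transporters, is also a macrophage marker here, so its call is counted in both lists. Within cKO, Ctsk was highest in cKO 2, and Ctsd was highest in cKO 4 and next in cKO 2. From cKO 1 to cKO 4 the macrophage sums were 516, 890, 809 and 607 CPM. The fibroblast sums were 447, 704, 609 and 690 CPM, and the proximal tubule sums 7141, 2384, 7486 and 4250 CPM.

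The part of these cells in the changes of Ctsk, Ctsd, Ctsc, Lgmn, Hexa, Gla and Galc was not tested. The 7 osteoclast markers summed to 51.4 to 81.3 CPM in WT and 102 to 139 CPM in cKO libraries, without overlap. Of these markers 3 were tested, and 2 of those had a positive log2 fold change. Only the calcitonin receptor Calcr was called, higher, on 0 to 8 counts per WT and 17 to 49 per cKO library. So few counts make up little of the sums, which lay mostly in markers that were not called or not tested. Oscar, Ocstamp and Dcstamp had at most 5 counts in any library. Of 7 neutrophil markers 0 could be tested and their sum was at most 2.13 CPM, and of 9 T and B cell markers, which summed to at most 10.03 CPM, 1 was called, Lck, higher.

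**Figure D4:**
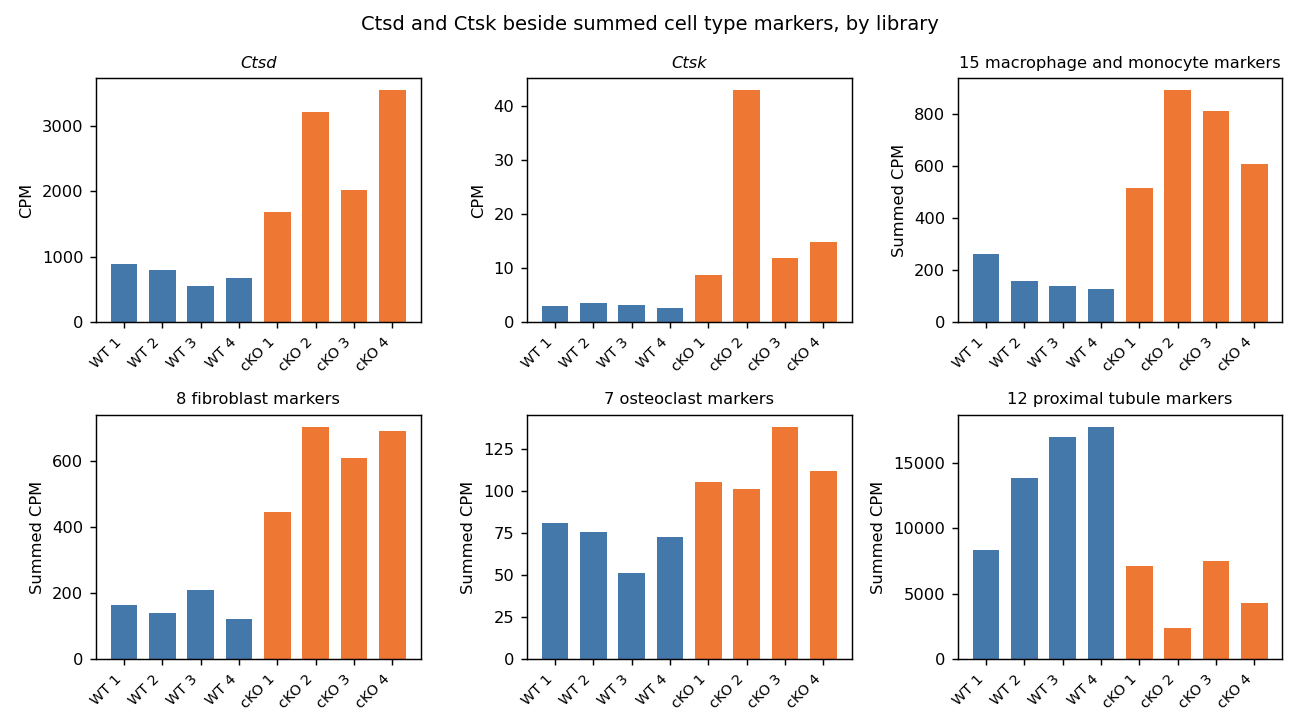
Scaled counts (CPM, y axes, linear from 0) of Ctsd and Ctsk and summed CPM of 4 marker lists in each library, WT in blue and cKO in orange. The macrophage, fibroblast and osteoclast sums are higher and the proximal tubule sum lower in every cKO library than in every WT library. Ctsk is highest in cKO 2.

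Since Y-linked reads were unequally spread over the genotypes, each call was also read with a sex term and within each set of libraries. With a sex term 6.8% of all genes were called. Of the members, Ctsc, Ctsd and Ctsk kept their call, at log2 fold changes of 1.41, 1.62 and 2.38 and edgeR adjusted p values of 0.00599, 0.0192 and 0.0243. Lgmn, Hexa, Gla and Galc lost it, at 0.78, 0.98, 0.82 and -0.84 with adjusted p values of 0.164, 0.0921, 0.117 and 0.0625.

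In the set of libraries without Y-linked reads, 1 WT against 3 cKO, the log2 fold changes of Ctsk, Ctsd, Ctsc, Lgmn, Hexa, Gla and Galc were 2.90, 1.66, 0.94, 0.65, 0.40, 0.61 and -0.65. Within those with Y-linked reads, 3 WT against 1 cKO, they were 1.91, 1.58, 1.87, 0.90, 1.57, 1.03 and -1.02. The sign was the same in both for all 7, though the same libraries made the calls, and only Ctsc was called within a set, the one with Y-linked reads. Each contrast has a single library on 1 side, whose spread is assumed to equal that of the others. A test of the difference between the sets called 0 members and 9 genes in all.

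**Figure D5:**
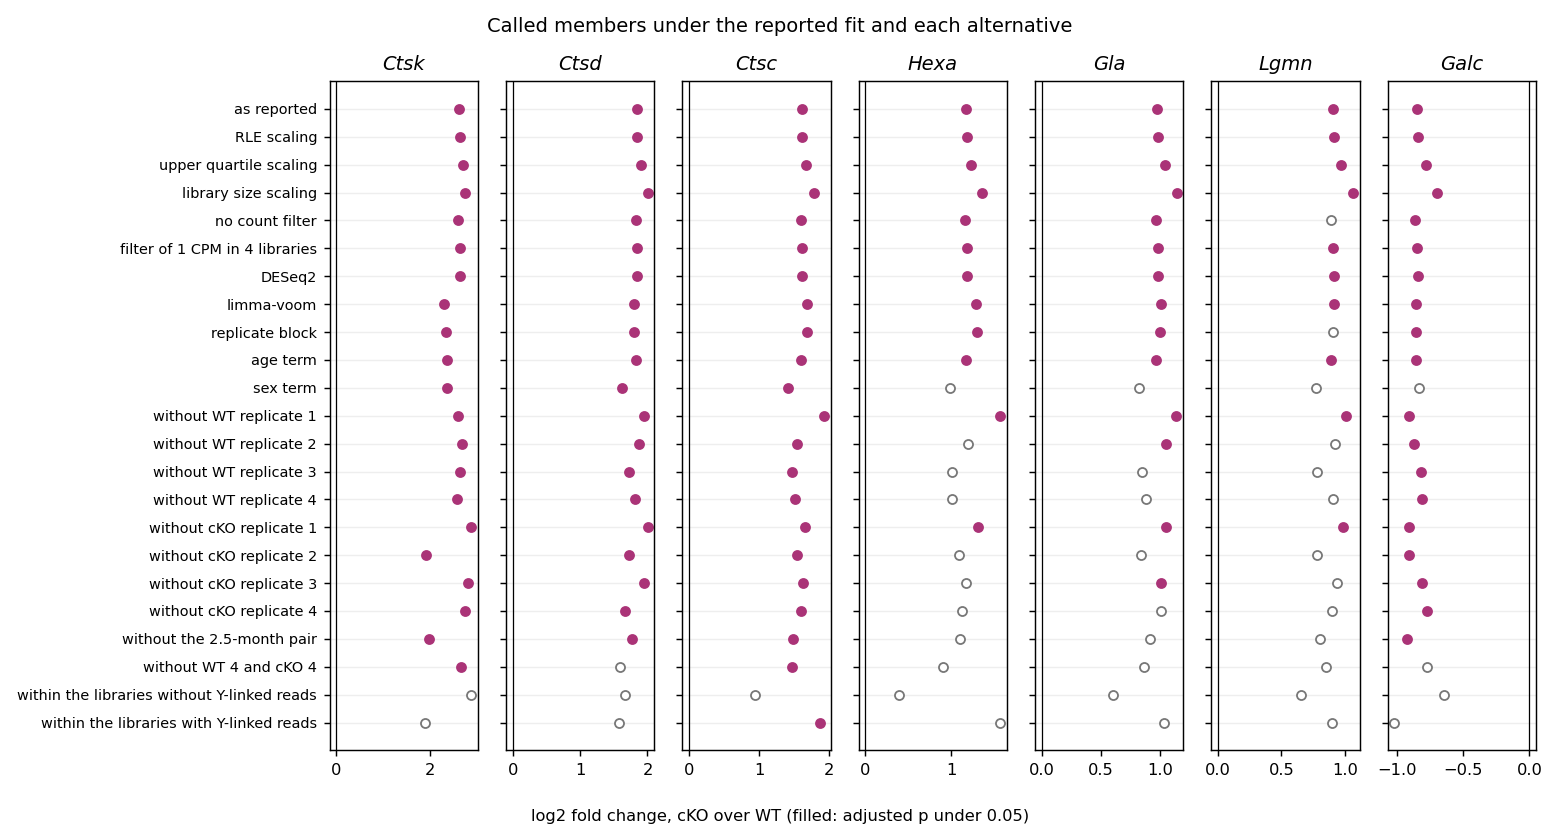
Log2 fold change (x axes, cKO over WT; scales differ between panels) of the 7 called members under the reported fit and 22 alternatives (y axis); filled points passed an adjusted p under 0.05. No point crosses 0, and the filled points are fewest for Lgmn and most frequent for Ctsc and Ctsk.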

How the data were processed

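Whole kidneys were flash frozen and stranded polyadenylated RNA libraries were made, per the labels' protocols. The submitters' processing notes name STAR, RSEM and mm10, while the sources used here give no versions, annotation release or strand setting. The deposited values are expected counts per Ensembl gene, as the authors estimated them, without scaling, 1 file per library. Symbols, positions and exon lengths came from GENCODE M21 on the same build, which matched 47224 of 47643 identifiers. Exon length is the union over all annotated transcripts, so a gene with long rare exons has a low level per kilobase. The range of library totals limits precision, and counts carry counting error besides the spread between libraries.

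Expected counts were rounded, filtered with filterByExpr, TMM-scaled (a trimmed mean of log ratios between libraries) and compared with the edgeR quasi-likelihood test (robust, two-sided), with p values adjusted by the Benjamini-Hochberg method across the 13829 genes tested and called under 0.05. Standard errors and 95% intervals derive from the F statistic. On simulated counts of these 13829 genes, 23 of 100 genes changed 2-fold and 79 of 100 changed 4-fold were called, with 3 false calls among 105. No other genes were changed there, whereas 2310 genes were called in the data. The adjusted p depends on how many genes change, so these rates do not give the power of the reported fit. The software was edgeR 4.0.16, DESeq2 1.42.0 and limma 3.58.1 in R 4.3.3, and matplotlib 3.10.9, numpy 2.4.6 and pandas 2.3.3 in Python 3.11.15.

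The members, the roles, the 6 other lists and the marker lists were chosen with earlier results of these data known, by what the genes do. Values in every library are given for called members and, in a role group with none called in a direction, for the 2 most abundant. Up to 4 called genes with the smallest adjusted p are named of each other list. The Y-linked genes were Ddx3y, Uty, Kdm5d and Eif2s3y. Alternatives were other scalings, filters and tools, a replicate block, age and sex terms, leaving out each library or a pair, and, chosen after seeing the data, contrasts within the sets with and without Y-linked reads.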

Additional observations from a re-analysis of the deposited data

Results flagged for a closer look

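In groups of 4 libraries, 160 groups of values were screened for a library whose gap to its nearest neighbour took up most of the range of its group. Chance alone marks about 1 in 20, and 9 were marked, 4 of them members. All 4 were high in cKO 2, the younger cKO library. The ceramidase Asah1 stood at 206 CPM there, against 120 to 133 in the other cKO libraries, and Cd63 at 2773 CPM against 1494 to 1663. Atg5 stood at 74.7 CPM there, against 46.8 to 51.5, and Map1lc3b at 428 CPM against 264 to 280. None of these 4 genes was called.

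In the same library the summed level of the other proton pump subunits was 4531 CPM, against 4002 to 4056, and that of the kidney segment markers 3967 CPM, against 6889 to 7121. Ctss stood at 28.6 CPM in WT 1, against 10.3 to 12.3 in the other WT libraries. Slc5a12, a tubular lactate transporter, stood at 116 CPM in cKO 1, against 51.1 to 55.8, and Aqp2 at 2113 CPM in cKO 4, against 710 to 814.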

How the results depend on the processing

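No member that was called changed its sign under any of 22 alternatives, and 17 uncalled members did under at least 1. Library-size scaling moved the median of all genes to 0.15, from -0.01. Leaving out each library in turn gave 1155 to 3093 differing genes, 3 to 8 members higher and 1 lower in each, and 3 to 10 other pathway genes higher and 2 to 16 lower. The 3 members higher without WT 3, WT 4, cKO 2 or cKO 4 were Ctsc, Ctsd and Ctsk. With a sex term 941 genes differed, with 3 members higher and 0 lower and 4 and 1 other pathway genes. Without the 2.5-month pair 1397 genes differed, with 3 members higher and 3 other pathway genes lower. Without WT 4 and cKO 4, 568 differed, with 2 members higher, Ctsc and Ctsk, 0 lower, and 2 and 1 other pathway genes. Between the genotypes in libraries lacking Y-linked reads 120 genes differed, with 0 members and 0 other pathway genes in either direction. In those with them 480 differed, with 1 member higher, 0 lower, and 4 and 0 other pathway genes. DESeq2 called 3165 genes, 2 members lower and 19 other pathway genes lower, the age term 17, upper quartile scaling 4, no count filter 3 and library size scaling 2. The causes of these differences were not tested.

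The replicate numbers were not taken as pairs: same-number correlations of residuals were -0.10, 0.32, 0.12 and 0.01, and -0.30 to 0.23 between different numbers. With the replicate block 2208 genes differed, 5 members were higher (all but Lgmn, adjusted p = 0.0655) and 1 lower, with 6 and 8 other pathway genes. Among the called members, Ctsk and Gla rest on the fewest counts in WT libraries, 31 to 42 and 77 to 131.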

Other observations

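Within the WT group some members were spread more widely than the genotypes differed. Gusb measured 29.7, 55.6, 115 and 86.3 CPM in WT 1 to 4, while the cKO libraries lay between 49.1 and 62.0 CPM. Npc1 measured 10.4, 10.1, 25.2 and 27.4 CPM in WT 1 to 4 and 15.5 to 20.1 CPM in cKO libraries. In both genes WT 3 and WT 4 lay above every cKO library and at least 1 other WT library lay below every cKO library, and the cKO SD was 6.01 CPM against 37.0 in WT for Gusb and 2.10 against 9.29 for Npc1. Hexa and Npc2 showed another order, with WT 1 and WT 2 above WT 3 and WT 4: Npc2 stood at 245, 221, 113 and 133 CPM. These genes were picked out once their values were known, and the cause was not tested.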
